A study of Mus musculus with 54 samples.

Results

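The late step of mammary gland involution was examined by setting glands at involution day 20 against glands at involution day 4. The comparison used the arrays titled for these times, 3 mice at each, which are 6 of the 54 arrays of the series, and all 12422 probe sets that are not array controls. The series followed the mouse mammary gland on Affymetrix arrays at 18 time points from virgin life through pregnancy and lactation to involution. Every array holds total RNA of a single inguinal gland, taken from 1 mouse after its lymph node was cut out. All 6 mice had been mated at the age of 12 weeks, had nursed for 7 days and had then lost their pups at a forced weaning, so that the groups differ in the days since weaning. The mice received no other treatment that the labels name, and strain, genotype and the age on the day of sampling are not given in the sources used here. Because weaning was forced at one moment, both times count from the same event.

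When suckling stops, milk fills the alveoli, and signalling through the transcription factor STAT3 and lysosomal proteases takes part in the death of the secretory epithelium. Macrophages and neighbouring epithelial cells clear the dead cells and the milk fat, matrix proteases open the basement membrane, and adipocytes refill the space between the ducts. The remodelled gland comes to look like that of an animal that has never been pregnant.

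The measured quantity is the MAS5 signal of a probe set, a brightness that the authors scaled to a common level on every array. Signals under 9.4 were set to 9.4, and values were compared as log2, so that a difference is bounded by the floor where an array printed below lies under it. A difference is given as log2 of day 20 minus day 4 with its standard error (SE), for 3 mice against 3, and a probe set was called changed at a limma p under 0.05 after Benjamini-Hochberg adjustment over all 12422 probe sets. A level given for a time point is the geometric mean of its 3 arrays. The epithelial keratin Krt8, the smooth muscle and myoepithelial actin Acta2 and the adipocyte hormone Adipoq gave signals between 329.9 (Acta2) and 4958.6 (Adipoq) in all 6 arrays, whereas the basal keratin Krt14 had signals between 15.5 and 24.0 on them. These are whole glands, so fewer cells of a type and less RNA per cell cannot be told apart.

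Between days 4 and 20, called falls were frequent among genes of milk (10 of 16), the acute phase (8 of 18), the luminal epithelium (12 of 22), the lysosome (15 of 31) and macrophages (12 of 25). Called rises were frequent among genes of fatty acid and triglyceride synthesis (9 of 16), fatty acid oxidation (10 of 22), the respiratory chain (24 of 40) and the white adipocyte (8 of 25). The other members of these lists were not called, apart from 1 acute phase gene and 1 luminal marker that rose and 1 adipocyte marker that fell. Of the 12422 probe sets, 548 (4.41%) were called higher at day 20 and 639 (5.14%) were called lower. They belong to 474 and 529 genes, and 1 gene, Anp32e, had probe sets called in both directions. The called falls were larger, with a median of -1.20 against 0.97 for the called rises. Changes of over 4-fold made up 66 of the falls and 19 of the rises. Over all probe sets the median difference was 0.00. In 1403 probe sets (11.3%) all 3 arrays of day 20 lay above all 3 of day 4, and in 1473 (11.9%) they lay below.

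The 6 arrays were not equally informative. Without mouse A of day 20 the calls dropped to 307 higher and 302 lower, and without mouse C of day 4 to 309 and 351. Mouse A of day 20 was the only one of the 6 whose closest array was of another time point, virgin 10 weeks. The ratio of 3′ to 5′ beta-actin signal, a sign of RNA integrity, was 1.36, 2.27 and 1.61 at day 4. At day 20 it was 3.32, 1.99 and 2.40, so the groups overlap, but only through mouse B of day 4. The ratio for GAPDH was 0.93, 4.39 and 0.96 at day 4 and 3.01, 2.55 and 3.66 at day 20. Mouse B of day 4 apart, both ratios were lower in each array of day 4 than in any of day 20. Adding the beta-actin covariate to the fit gave 420 higher and 485 lower calls, while the GAPDH ratio was not tested. When the arrays were instead given equal medians, the split turned from 46.2% to 56.3% higher, with 628 higher and 488 lower, and the median difference of the probe sets above a signal of 22.8 moved from -0.01 to 0.10. Fitted on the 6 arrays alone, without the spread of the other time points, the comparison called 56 higher and 65 lower. That fit ended 80 of the 110 called probe sets followed here for the named genes, Wap, Krt8, Stat3 and Elovl6 among them (adjusted p = 0.1, 0.13, 0.12 and 0.094). By list it called lower 1 of the milk genes, 1 luminal, 0 lysosomal, 1 macrophage, 0 STAT3 and 6 acute phase genes, and higher 1 each of fatty acid synthesis, cholesterol synthesis, fatty acid oxidation and the respiratory chain and 2 of the white adipocyte markers. The calls below thus rest on a spread estimated over all time points. Of the 110, 82 were called in each fit that leaves out 1 array, and where an array ends a call, the adjusted p without it stands beside the gene.

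**Figure D1:**
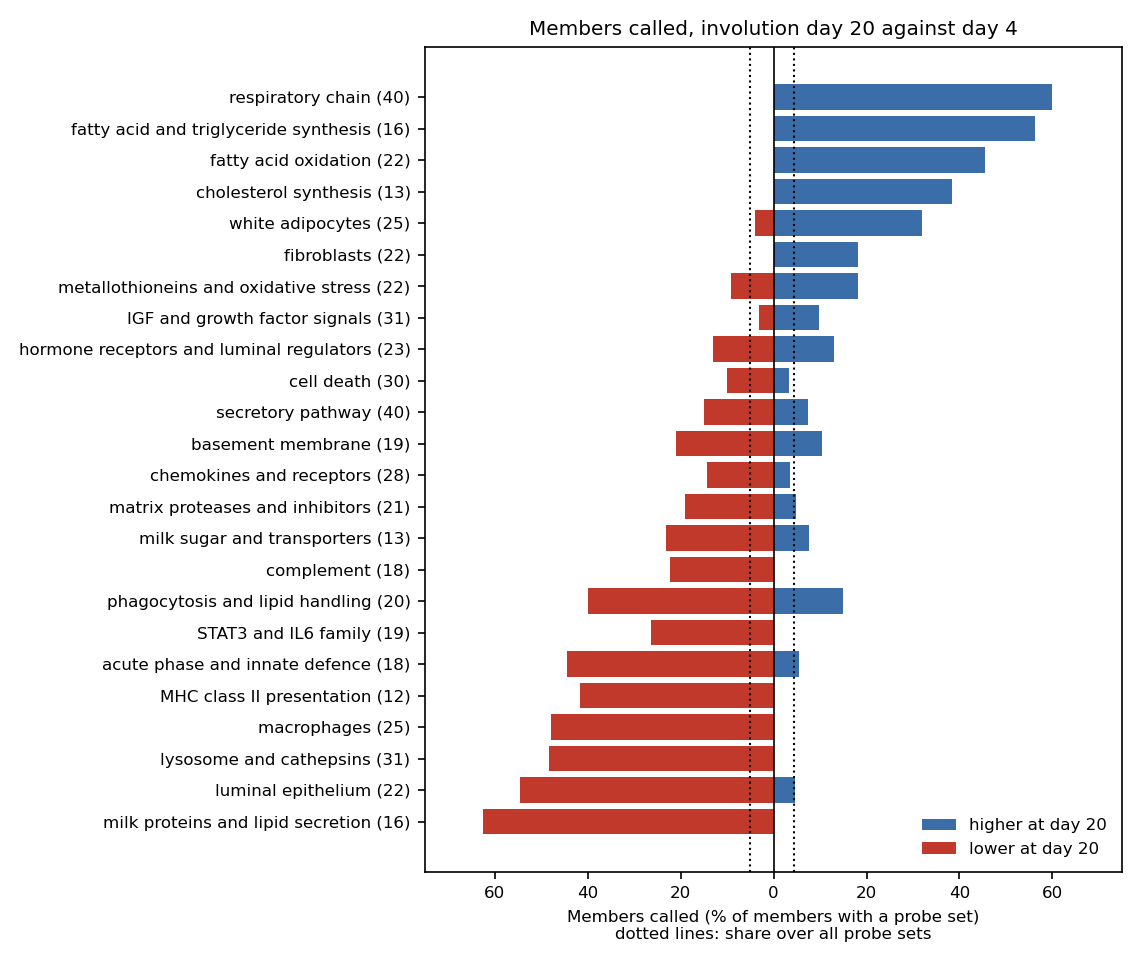
Share of the members of each gene list that were called higher (blue, right) or lower (red, left) at involution day 20 than at day 4, in percent of the members with a probe set, whose number is in brackets, for the lists with 4 or more called members. The dotted lines mark the shares over all probe sets, 4.41% and 5.14%; the milk, luminal, lysosome and macrophage lists extend far to the left and the respiratory chain and fatty acid lists far to the right.

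Promoter letters are shown first for milk and sterol genes, because the factors behind them are known to bind short motifs. The windows below come from RefSeq promoters of GRCm38.p6, and each promoter was searched over the 250 bases before the start of the gene, on both strands. The GAS motif, TTCNNNGAA, is the palindrome bound by STAT factors, and STAT5 drives milk genes through it in lactation. It was found in 3 of the 11 milk genes with a promoter in the table, Csn1s1, Csn2 and Glycam1, which is 27.3% against 8.13% of all 27025 genes. None of those 3 was called between days 4 and 20, and 0 of the 8 called milk genes with a promoter held the motif in this window. The first pair of windows shows the motif, in capitals, in the promoters of Csn1s1 (chr5:87666082-87666141, plus strand, 100 bases before the start) and Csn2 (chr5:87699485-87699544, minus strand, 93 bases before the start), written in the direction of the gene.
Csn1s1 GAS: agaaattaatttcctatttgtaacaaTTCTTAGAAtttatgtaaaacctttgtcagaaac
Csn2 GAS: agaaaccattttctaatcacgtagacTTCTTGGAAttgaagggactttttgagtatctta

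The CCAAT box, bound by the factor NF-Y, was present in 37.5% of all genes. It was present in 24 (72.7%) of the 33 cell cycle genes with a promoter, of which 0 were called. In the cholesterol list it was present in 10 of the 10 genes with a promoter, of which 3 were called. The sterol regulatory element TCACNCCAC, bound by SREBP factors, was present in 1 of the 10, Hmgcs1, against 1.22% of all genes, and in 0 of the 12 genes of fatty acid and triglyceride synthesis with a promoter. Both searches of the sterol genes were chosen after the values had been seen, and a match of letters is not a bound site. The next 4 windows show, in capitals, the CCAAT box of Idi1 (chr13:8885566-8885605, plus strand), of Lss (chr10:76531517-76531572, plus strand) and of Hmgcs1 (chr13:119690280-119690335, plus strand), read on the opposite strand as ATTGG, and the sterol element of Hmgcs1 (chr13:119690188-119690247, plus strand). The boxes shown lie 14, 62 and 45 bases before the start of Idi1, Lss and Hmgcs1, and the sterol element 137 bases before that of Hmgcs1. Each box shown is the match nearest the start, since Idi1 held 2 matches and Hmgcs1 held 3.
Idi1 CCAAT: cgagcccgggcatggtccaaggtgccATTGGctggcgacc
Lss CCAAT: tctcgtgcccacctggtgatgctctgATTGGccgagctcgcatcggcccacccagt
Hmgcs1 CCAAT: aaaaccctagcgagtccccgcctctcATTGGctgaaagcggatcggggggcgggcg
Hmgcs1 SRE: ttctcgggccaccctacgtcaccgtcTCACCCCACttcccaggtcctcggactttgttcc

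Of the 16 genes of milk protein and milk fat secretion, 10 were called lower at day 20 and 0 higher, with a median of -1.41, and all 16 differences were negative. Wap, the whey acidic protein, had signals of 4481.5, 5524.2 and 6651.0 at day 4 and of 44.1, 335.6 and 432.8 at day 20. The groups were far apart, and mouse A of day 20 was the lowest by a wide margin, with a difference of -4.88 ± 0.83 (SE; limma adjusted p = 0.0001). Csn1s2b, a minor calcium-binding casein, had 354.0, 1114.8 and 1407.8 at day 4 and 14.9, 36.9 and 48.9 at day 20, with no overlap and a difference of -4.78 ± 0.47 (adjusted p = 3.5e-09). Muc1, the mucin of the apical membrane and of the milk fat globule, fell from 1289.2, 1763.9 and 1748.8 to 159.6, 297.4 and 366.6. Its difference was -2.61 ± 0.35 (adjusted p = 3.1e-06), and again mouse A was lowest and mouse C highest at day 20.

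Ltf, the iron-binding milk protein lactoferrin, was among the brightest signals at both times, 5200.2, 4591.2 and 5846.5 at day 4 and 815.3, 1347.0 and 1794.5 at day 20 (-2.05 ± 0.34, adjusted p = 7.3e-05). The milk fat globule genes Plin2, which coats lipid droplets, and Mfge8, which also bridges phagocytes to dying cells, fell by 1.39 and 1.16 on the log2 scale, with adjusted p-values of 0.00026 and 7.8e-05. Mfge8 kept 2236.7, 3720.9 and 4285.5 at day 20 against 7299.7, 6948.2 and 7921.6 at day 4, a gap with no overlap although it was under 3-fold. Cel, the bile salt-stimulated lipase of milk, fell by 1.50 (adjusted p = 0.00096). Of 13 genes of milk sugar and transporters 3 were called lower and 1 higher, with a median of 0.00, and 1 was called lower without mouse A of day 20. The zinc transporter Slc39a8 had 137.4, 353.4 and 424.6 at day 4 and 76.7, 41.8 and 29.6 at day 20 (-2.59 ± 0.41, adjusted p = 3.5e-05), and Pgm1, a phosphoglucomutase, rose by 1.20 (adjusted p = 9.5e-06). Large falls outside both lists included 2 further genes: Wfdc18, a secreted whey-type protease inhibitor, went from between 3474.4 and 4460.0 to between 380.7 and 469.9 (-3.27 ± 0.31, adjusted p = 1.6e-09), and Folr1, a folate receptor, went from 336.0, 444.9 and 600.5 to 17.1, 76.6 and 95.0 (-3.16 ± 0.49, adjusted p = 2.5e-05).

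The main caseins did not pass the test. Csn2, beta-casein, had 3519.0, 3475.9 and 3751.5 at day 4 and 991.1, 1474.9 and 1913.8 at day 20; the arrays did not overlap, but the difference of -1.35 ± 0.72 did not pass (adjusted p = 0.28), where the SE pools the spread of all time points. The gene passed with array weights (0.031) or the beta-actin covariate (0.034). Csn1s1, alpha-casein, had signals from 6148.3 to 6679.7 at day 4 and from 4840.0 to 6055.6 at day 20, a difference of -0.27 ± 1.03 (adjusted p = 1). Kappa-casein, Csn3, had 4717.1 to 5872.8 and 2938.9 to 3843.3 (-0.67 ± 0.45, adjusted p = 0.45). Lalba, the regulator of lactose synthesis, had 1240.6, 549.3 and 865.0 at day 4 and 5.5, 372.9 and 209.5 at day 20 (-3.22 ± 0.76, adjusted p = 0.0043); its call rests on mouse A of day 20, without which the adjusted p was 0.16. The calls of Csn1s2a (-2.15, adjusted p = 0.036) and Btn1a1 (-1.35, adjusted p = 0.022) were weaker, since Csn1s2a lost its call without any 1 of the 6 arrays (adjusted p from 0.054 to 0.14) and Btn1a1 lost it without mouse A (0.11) or B (0.056) of day 20 or mouse B (0.12) or C (0.068) of day 4.

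**Figure D2:**
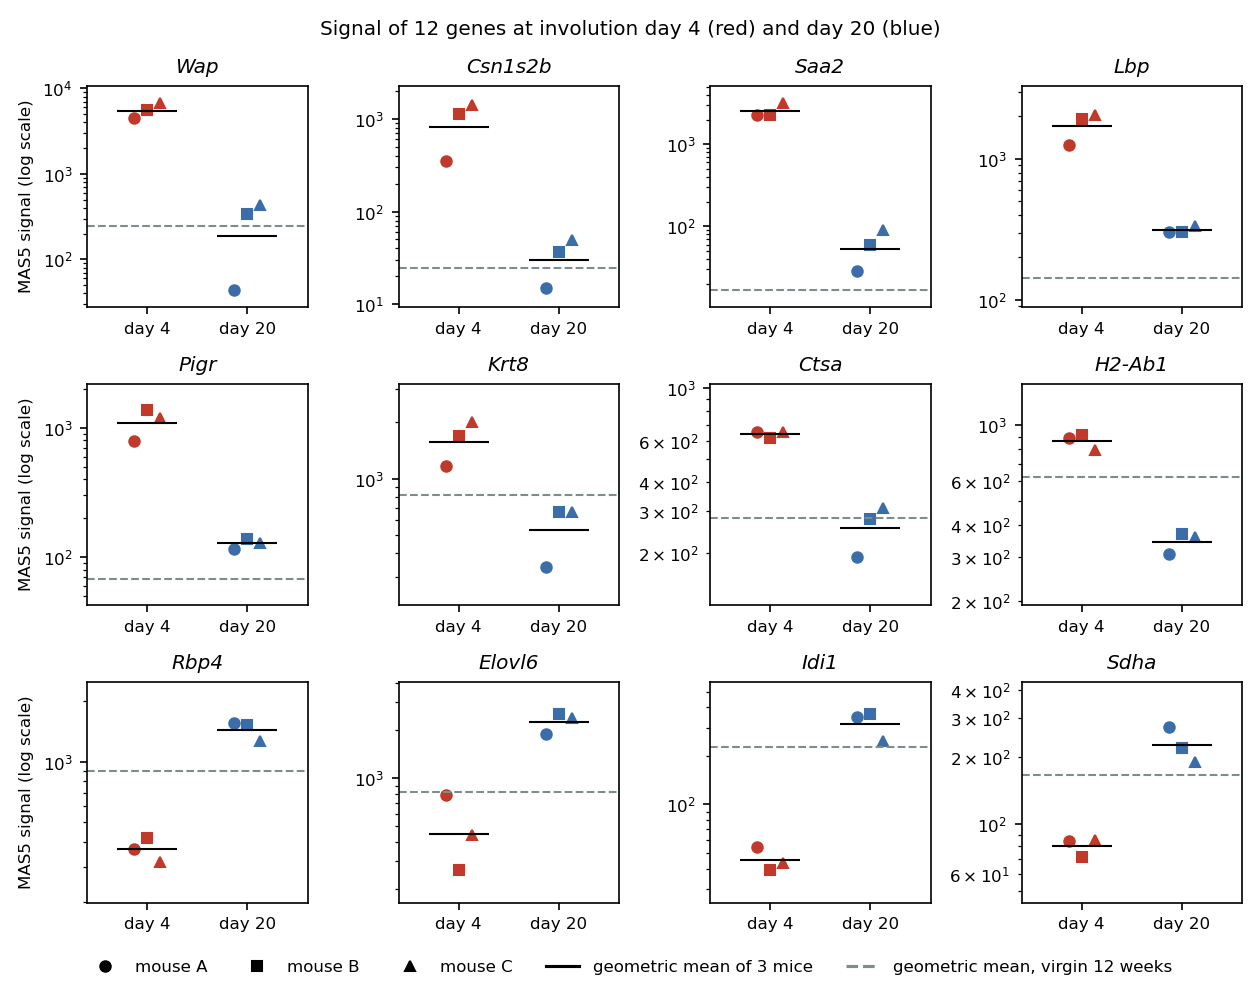
MAS5 signal, on a log axis, of 12 genes in the 3 mice of involution day 4 (red) and the 3 of day 20 (blue); circles, squares and triangles are mice A, B and C, black bars are geometric means and dashed lines are the geometric mean of virgin 12 weeks. The 2 groups do not overlap in any of the 12 genes, and mouse A of day 20 is the lowest for Wap, Csn1s2b, Saa2 and Krt8.

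Of the 18 genes of the acute phase and of innate defence, some of which the epithelium itself can make, 8 were called lower and 1 higher, with a median of -1.27; the 8 falls were called in every fit that leaves out 1 array. Saa2, a serum amyloid A protein, had the largest fall of all called genes with a single symbol, from 2285.6, 2290.4 and 3196.2 to 28.6, 58.9 and 89.2. This is a difference of -5.59 ± 0.63, or 48.1-fold (adjusted p = 9.7e-08). The name of its probe set marks probes shared by a gene family, so other amyloid A genes may add to the signal, and a different probe set of Saa2 fell by 3.19 (adjusted p = 3.9e-06). Saa3 had 154.3, 274.3 and 350.2 at day 4 and 19.7, 24.4 and 19.8 at day 20, a difference of -3.53 ± 0.44 (adjusted p = 7.3e-07).

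Lbp, which carries bacterial lipopolysaccharide to its receptor, had 1261.9, 1906.1 and 2056.8 at day 4 and a tight 303.9, 303.4 and 333.9 at day 20. The difference was -2.44 ± 0.22 (adjusted p = 6.8e-10). Cd14, the co-receptor that takes lipopolysaccharide from Lbp, went from 3720.1, 4464.5 and 5420.8 to 1520.2, 1247.3 and 1350.5 (-1.71 ± 0.30, adjusted p = 0.00015). Both genes were thus lower in every mouse of day 20 than in any mouse of day 4. Pigr, the receptor that carries IgA across the epithelium, fell from 795.8, 1368.9 and 1196.8 to 116.0, 138.7 and 129.6 (-3.10 ± 0.25, adjusted p = 7.9e-11), which is 8.55-fold. Lcn2, the siderophore-binding lipocalin, fell by 1.66, the copper carrier Cp by 1.79 and the glycoprotein Lrg1 by 2.27 on the log2 scale, with adjusted p-values of 0.00019, 4e-06 and 0.0019. Outside the list, Il1rn, the antagonist of the interleukin 1 receptor, had 62.0, 163.1 and 132.5 at day 4 and 7.3, 22.5 and 14.8 at day 20 (-2.91 ± 0.46, adjusted p = 3.5e-05). The exception in the list was Orm1, an acid glycoprotein, with 255.4, 334.6 and 347.9 at day 4 and 768.6, 776.6 and 756.7 at day 20 (1.31 ± 0.38, adjusted p = 0.024), a rise that was no longer called without mouse A (0.08) or B (0.055) of day 20 or mouse A (0.1) or C (0.052) of day 4.

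Of the 19 genes of STAT3 and the interleukin 6 family, 5 were called lower and 0 higher, with a median of -0.59; 2 were called without mouse A of day 20 or mouse C of day 4, and 3 without mouse C of day 20 or mouse B of day 4. Stat3 itself had 471.8, 462.6 and 708.8 at day 4 and 150.2, 266.2 and 232.4 at day 20, with no overlap (-1.35 ± 0.25, adjusted p = 0.00024). A further probe set of Stat3 fell by 1.25 (adjusted p = 1.1e-06). The ligand Il6 was under the floor in all 6 arrays. The brightest probe set of the feedback inhibitor Socs3 did not pass (-0.85 ± 0.33, adjusted p = 0.1), although it did with array weights (0.011) or a floor at a signal of 22.8 (0.0084). A dimmer probe set of Socs3 was called lower (-1.95 ± 0.46, adjusted p = 0.0041), with means of 101.1 at day 4 and 26.2 at day 20. Cebpb (-1.14, adjusted p = 0.0069) lost its call without mouse A of day 20 (0.085). Osmr, the receptor of oncostatin M (-1.07, adjusted p = 0.027), lost its call without mouse B (0.12) or C (0.095) of day 20. The call of Osmr was also lost without mouse B (0.057) or C (0.13) of day 4. The remaining called members were Junb and Cebpd. Ier3, an immediate early gene induced by stress, had 312.5, 252.7 and 400.7 at day 4 and 62.3, 87.4 and 66.0 at day 20 (-2.15 ± 0.37, adjusted p = 0.00011). Of the 24 immediate early genes 3 were called lower and 0 higher, with 1 lower without mouse A of day 20 or mouse C of day 4, and of the 39 cell cycle genes 0 were called higher and 1 lower, Stmn1, which binds tubulin (-1.08, adjusted p = 0.03). That call was lost without mouse A (0.19) or B (0.18) of day 20 and without mouse A (0.069), B (0.082) or C (0.075) of day 4. Without mouse C of day 20, in contrast, 4 cell cycle genes were called lower.

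In the list of 30 cell death genes 3 were called lower and 1 higher. Among them Clu, a secreted chaperone that marks the regressing gland, fell from 1759.0, 1744.9 and 2354.7 to 322.3, 521.0 and 469.0 (-2.17 ± 0.22, adjusted p = 1.3e-08). Bcl2l1, the survival gene of the Bcl-x proteins, fell by 0.98 (adjusted p = 0.0013). Of the 30 genes of TGF-beta and BMP signalling 3 were called lower, and 1 without mouse B of day 20, without mouse C of day 4 or with median scaling. Tgfb3, the ligand known to rise at weaning, had 864.8, 806.2 and 1045.2 at day 4 and 160.0, 279.5 and 363.1 at day 20 (-1.83 ± 0.27, adjusted p = 1e-05). A dim probe set of Tgfb3, with means of 16.7 at day 4 and 18.1 at day 20, was not called (0.12 ± 0.29). None of the 30 was called higher.

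Of 22 luminal epithelial markers with a probe set 12 were called lower and 1 higher, with a median of -1.24 and a summed signal of 11700 to 15429 at day 4 and 3754 to 5733 at day 20. Krt8 had 1163.1, 1679.7 and 1999.3 at day 4 and 339.4, 666.8 and 665.0 at day 20, and its partner keratin Krt18 had 852.9, 1293.2 and 1383.4 against 342.1, 492.6 and 497.4. The differences were -1.57 ± 0.33 and -1.40 ± 0.33, with adjusted p-values of 0.0014 and 0.0039. The tight junction claudins Cldn3 and Cldn7 fell by 2.29 and 2.57 on the log2 scale (adjusted p = 3.4e-06 and 1.1e-05). Spint1, an inhibitor of epithelial surface proteases, had 213.3, 210.5 and 246.2 at day 4 and 60, 58.6 and 60 at day 20 (-1.90 ± 0.23, adjusted p = 4e-07), and the 3 arrays of each group lay close together. Outside the list of luminal markers, Gjb2, the gap junction protein connexin 26, fell from 577.2, 800.4 and 879.0 to 48.1, 58.5 and 54.5 (-3.79 ± 0.46, adjusted p = 4e-07).

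Regulators of the luminal lineage moved both ways. Elf5, the transcription factor of secretory alveolar cells, had 353.2, 593.3 and 581.2 at day 4 and 101.7, 106.9 and 151.5 at day 20 (-2.07 ± 0.30, adjusted p = 9.5e-06). Foxa1, the partner of the estrogen receptor in hormone-sensing luminal cells, went the other way, with 29.2, 21.9 and 3.3 at day 4 and 107.0, 78.2 and 123.1 at day 20 (2.47 ± 0.41, adjusted p = 6.5e-05). The 3.3 lies under the floor, and the rise was called in every fit that leaves out 1 array. Ghr, the growth hormone receptor, rose from 376.3, 325.7 and 276.5 to 905.1, 591.4 and 660.2 (1.13 ± 0.24, adjusted p = 0.0014). Esr1, the estrogen receptor, was dim, with 23.1, 51.6 and 50 at day 4 and 11.1, 17.3 and 6.2 at day 20; its call (-1.68 ± 0.50, adjusted p = 0.025) was lost without mouse A (0.099) or C (0.086) of day 20 or mouse B (0.096) or C (0.12) of day 4, and 3 other probe sets of the gene gave none. In the list of 23 hormone receptors and luminal regulators 3 were called higher and 3 lower, with 1 lower without mouse A of day 20 or mouse C of day 4.

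Of 15 basal and myoepithelial markers with a probe set 2 (13.3%), Krt17 and Itgb4, were called lower and 0 higher, and both calls were lost without mouse A of day 20 (adjusted p = 0.12 and 0.24), that of Itgb4 also without mouse B (0.08) or C (0.088) of day 4. Krt14 was dim at both times (-0.15 ± 0.31, adjusted p = 0.97). Acta2 had 412.5, 329.9 and 482.3 at day 4 and 640.2, 501.5 and 793.6 at day 20; the arrays did not overlap, yet 0.65 ± 0.35 did not pass (adjusted p = 0.29).

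Of 31 lysosomal genes with a probe set 15 were called lower and 0 higher, with a median of -0.64, and the count was 8 without mouse A of day 20. Ctsa, the protective protein cathepsin A, had 650.3, 614.3 and 654.0 at day 4 and 191.9, 278.5 and 310.7 at day 20, with no overlap (-1.33 ± 0.18, adjusted p = 3.6e-06). Psap, the precursor of the saposins that help degrade sphingolipids, had 3323.0, 2398.6 and 2240.2 against 1191.2, 1174.8 and 1263.6 (-1.11 ± 0.20, adjusted p = 0.00021). Ctsz fell by 0.98 and Ctsh by 0.58 on the log2 scale, both cysteine cathepsins, with adjusted p-values of 0.0027 and 0.0033. Ctsd, the aspartic cathepsin D, showed the weight of a single gland: it had 3140.0, 2284.1 and 2974.7 at day 4 and 909.4, 1982.0 and 1787.7 at day 20, and its call (-0.91 ± 0.27, adjusted p = 0.027) was lost without mouse A of day 20 (0.35) and without mouse A (0.11) or C (0.11) of day 4. Ctsl, cathepsin L, differed by -0.67 (adjusted p = 0.016) and was no longer called without mouse B of day 20 (0.068) or mouse C of day 4 (0.14).

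Of 25 macrophage genes with a probe set 12 were called lower and 0 higher, with a median of -0.94, and the summed signal of the list was 17285 to 18787 at day 4 and 7553 to 8008 at day 20, so that the groups were well apart. The count was 5 without mouse A of day 20 and 4 without mouse A of day 4, while the median without mouse A of day 20 was -1.01. Tyrobp, the adaptor of activating receptors on myeloid cells, had 1075.6, 1178.3 and 861.8 at day 4 and 472.2, 351.7 and 377.6 at day 20 (-1.37 ± 0.32, adjusted p = 0.0042). The complement subunit C1qb, made by macrophages, had 1294.8, 1017.0 and 999.4 against 409.2, 555.9 and 473.8 (-1.20 ± 0.32, adjusted p = 0.013), and C1qa and C1qc fell by 1.78 and 1.51. All 3 C1q calls were lost without mouse A of day 20 (adjusted p = 0.085 for C1qa, 0.079 for C1qb and 0.1 for C1qc) or mouse A of day 4 (0.063, 0.065 and 0.056). The lysosomal macrophage marker Cd68 had 659.5, 448.0 and 630.5 at day 4 and 220.7, 272.7 and 274.5 at day 20 (-1.17 ± 0.32, adjusted p = 0.015), with no overlap, and was not called without mouse A of day 20 (0.086) or mouse A (0.069) or C (0.072) of day 4.

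Of 12 genes of antigen presentation by MHC class II 5 were called lower and 0 higher, with a median of -0.87, and 3 were called without mouse A of day 4. H2-Ab1 and H2-Aa, the chains of one class II molecule, had 890.8, 911.9 and 792.3 against 307.8, 367.9 and 358.7 and 2073.3, 1364.2 and 1566.5 against 641.2, 698.7 and 715.6 at days 4 and 20. Their differences were -1.33 ± 0.33 and -1.26 ± 0.30 (adjusted p = 0.0062 and 0.0038), and H2-Eb1 fell by 1.20 (adjusted p = 0.0037). The class I list, with 13 genes, had 0 calls in either direction, with a median of -0.14. Markers of T cells and NK cells had 0 calls among 22, with summed signals of 804 to 921 at day 4 and 796 to 1199 at day 20, and of 14 neutrophil markers 1, Ltf, was called, a gene that the milk list also holds. Of 22 B cell and plasma cell markers 3 were called lower, and 1 without mouse A or B of day 20 or mouse A or C of day 4. One of them, Xbp1, the factor that expands the secretory apparatus and that secretory epithelium also expresses, had 1093.8, 1211.2 and 1213.2 against 269.8, 427.0 and 562.6 (-1.54 ± 0.21, adjusted p = 3.6e-06).

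Among 21 matrix proteases and their inhibitors 4 were called lower and 1 higher, and 2 were called lower without mouse A of day 4. Adam8, a membrane protease of myeloid and stressed cells, had 36.2, 96.4 and 72.7 at day 4 and 10.0, 6.6 and 4.7 at day 20, of which 2 lie under the floor, so that the floor bounds the fall at -2.72 ± 0.34 (adjusted p = 9e-07). The collagenase Mmp13 was dim, with 23.8, 33.4 and 30.3 against 9.1, 10.5 and 9.1, and fell by 1.57 (adjusted p = 4.4e-05). The stromelysin Mmp3 had 785.5 to 1103.1 at day 4 and 473.2 to 546.5 at day 20 and did not pass (-0.79 ± 0.48, adjusted p = 0.37). Of 29 collagen and matrix genes 2 were called higher and 1 lower. Without mouse A of day 20 or with the beta-actin covariate 0 were called either way, and with array weights 10 were called higher. Col1a1 had 1518.7 to 2288.2 against 1753.5 to 3101.7, overlapping groups (0.21 ± 0.28, adjusted p = 0.84). In the basement membrane list 4 of 19 were called lower and 2 higher; 1 and 0 were without mouse A of day 20. The laminin chains Lama3, Lamb3 and Lama5 fell and Lama2 and Lamb1 rose, and all 5 calls were lost without mouse A of day 20 (adjusted p = 0.062, 0.43, 0.058, 0.069 and 0.14). The losses with other arrays were, for Lama3 and Lamb3, mouse A of day 4 (0.054 and 0.059), for Lama2, mouse C of day 20 (0.089) and mouse C of day 4 (0.18), and for Lamb1, mouse A (0.1) and C (0.086) of day 4. Agrn, a heparan sulfate proteoglycan, had 201.7 to 279.1 at day 4 and 112.9 to 154.7 at day 20 (-0.84 ± 0.17, adjusted p = 0.0011).

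**Figure D3:**
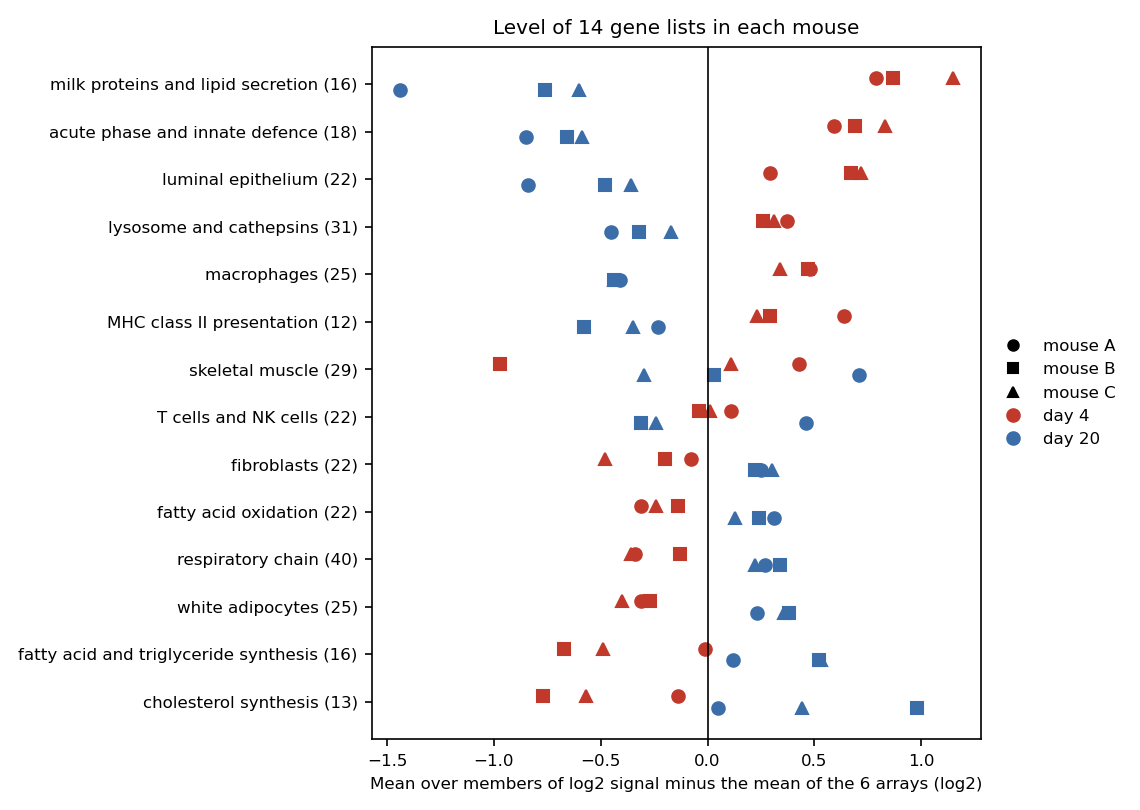
Level of 14 gene lists in each of the 6 mice, as the mean over members of log2 signal minus the mean of the 6 arrays; red is involution day 4, blue is day 20, and circles, squares and triangles are mice A, B and C. Mouse A of day 20 is lowest for the milk list (-1.44) and the luminal list (-0.84) and highest for the skeletal muscle list (0.71) and the T cell list (0.46), and the skeletal muscle list does not part the groups.

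Of the 16 genes of fatty acid and triglyceride synthesis 9 were called higher at day 20 and 0 lower, with a median of 0.80 and counts of 6 to 9 when 1 array was left out. Elovl6, which lengthens palmitate, had 782.1, 263.6 and 438.8 at day 4 and 1906.5, 2537.2 and 2381.3 at day 20 (2.33 ± 0.40, adjusted p = 0.00015), and a further probe set rose by 2.34 (adjusted p = 0.0025). Me1, the malic enzyme that supplies NADPH, had 1130.6, 762.8 and 746.5 against 2666.4, 3172.6 and 2995.3 (1.77 ± 0.30, adjusted p = 0.0001). Thrsp, a regulator of lipogenesis, rose from 1917.5 to 2739.3 at day 4 to 4350.6 to 5404.6 at day 20 (1.20 ± 0.23, adjusted p = 0.00039). Within day 4, mouse A stood higher than mice B and C for Elovl6 and Me1, and the same was seen for Acly, the enzyme that makes cytosolic acetyl-CoA, with 1876.8, 493.6 and 554.8 at day 4 and 1894.9, 2487.0 and 3279.9 at day 20. Its call (1.64 ± 0.51, adjusted p = 0.033) was lost without any array of day 20 (0.054, 0.069 and 0.11 for mice A, B and C) and without mouse B (0.16) or C (0.18) of day 4. Fasn, the fatty acid synthase, had overlapping arrays, with 2775.2 to 3519.1 against 3297.9 to 5236.6 (0.53 ± 0.17, adjusted p = 0.037), and lost its call without mouse B (0.13) or C (0.18) of day 20 or mouse B (0.12) or C (0.16) of day 4.

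Of 13 cholesterol synthesis genes, for 3 of which promoter windows are printed above, 5 were called higher and 0 lower, with a median of 0.89, and 3 were called without mouse B of day 20 or mouse B of day 4. Idi1, the isopentenyl diphosphate isomerase, had the largest rise of all called genes with a single symbol: 54.2, 39.2 and 43.2 at day 4 and 347.4, 361.4 and 246.1 at day 20. The difference was 2.80 ± 0.36, or 6.96-fold (adjusted p = 1.3e-06). Lss, which closes the sterol rings, had 46.7, 31.0 and 39.3 against 105.7, 136.9 and 169.6 (1.81 ± 0.36, adjusted p = 0.00074). Hmgcs1, the cytosolic HMG-CoA synthase, had 72.3, 98.8 and 79.7 against 222.9, 254.3 and 163.4 (1.34 ± 0.34, adjusted p = 0.0079). None of the 3 genes had overlapping groups. The remaining rises were Fdps (1.77, adjusted p = 0.0061), no longer called without mouse B of day 20 (0.052) or mouse B of day 4 (0.1), and Sqle (0.89, adjusted p = 0.035), lost without mouse A (0.054) or B (0.17) of day 20 or mouse B (0.14) or C (0.08) of day 4.

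Of 25 white adipocyte markers 8 were called higher and 1, Angptl4, lower, with a median of 0.59; the summed signal was 20055 to 23554 at day 4 and 28644 to 36432 at day 20. Rbp4, the retinol carrier that adipocytes secrete, had 368.8, 419.9 and 318.8 at day 4 and 1561.5, 1526.6 and 1263.5 at day 20 (1.98 ± 0.25, adjusted p = 7.9e-07). Pparg, the master regulator of the adipocyte, had 87.4, 81.6 and 65.6 against 282.7, 195.9 and 206.2 (1.54 ± 0.27, adjusted p = 0.00015). Adipor2, a receptor of adiponectin, had 416.9, 447.1 and 397.6 against 955.2, 871.0 and 1088.4 (1.20 ± 0.13, adjusted p = 2.1e-08). The lipid uptake genes Lpl, a lipase, and Cd36, a fatty acid transporter, rose by 0.93 and 1.55 (adjusted p = 0.0019 and 0.002). Adiponectin itself, Adipoq, was already at 2487.5 to 3086.4 at day 4 and reached 4553.7 to 4958.6 at day 20 (0.81 ± 0.23, adjusted p = 0.018), a call lost without mouse A of day 20 (0.062) or mouse B (0.051) or C (0.087) of day 4. Angptl4, the inhibitor of lipoprotein lipase, ran against the rest with 849.1 to 1121.7 at day 4 and 238.2 to 435.6 at day 20 (-1.54 ± 0.37, adjusted p = 0.0047), lost without mouse A of day 20 (0.058). None of its other probe sets was called, and the brightest of them gave -0.35 (adjusted p = 0.88).

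Several of the largest rises belonged to no list. Penk, the precursor of the enkephalins, had 123.8, 157.9 and 94.9 at day 4 and 770.8, 617.1 and 725.8 at day 20 (2.51 ± 0.29, adjusted p = 1.7e-07). Tshr, the receptor of thyrotropin, had 19.4, 20.0 and 18.6 against 73.0, 92.1 and 80.7 (2.08 ± 0.34, adjusted p = 5.5e-05). Ptger3, a prostaglandin E receptor, had 43.7, 21.5 and 19.7 against 101.3, 176.3 and 178.2 (2.48 ± 0.44, adjusted p = 0.00019). In these 3 genes the arrays of day 20 lay above those of day 4, which the rule that named the largest rises required. Gbe1, which branches glycogen, rose by 2.35, Aldh1a7, an aldehyde dehydrogenase, by 2.16, and Amy1, an amylase, by 2.25 (adjusted p = 4e-05, 2.3e-06 and 0.00033). Tph1, the enzyme of serotonin synthesis, was under the floor or dim at day 4, with 2.3, 16.5 and 5.7, and had 55.8, 124.3 and 69.8 at day 20 (2.79 ± 0.66, adjusted p = 0.0044). Cdr2 had 15.1, 19.0 and 26.5 against 92.1, 100.3 and 74.7 (2.17 ± 0.28, adjusted p = 1.4e-06). In the list of 28 chemokines and receptors 4 (14.3%) were called lower and 1 (3.57%) higher, with 1 lower without mouse C of day 4. The 1 called higher was Cxcl12, a chemokine of stromal cells. Cxcl12 rose by 1.00 and by 1.86 with 2 of its probe sets and by 0.11 with the other (adjusted p = 0.0025, 4.2e-05 and 1).

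Further large falls were these. Cyp2d10, a cytochrome P450, had 90.4, 105.6 and 193.4 at day 4 and was under the floor in all 3 arrays of day 20, so that it was at least 13.1-fold lower (adjusted p = 7.9e-11). Its other probe set, whose day 20 arrays also averaged the floor, was lower as well (adjusted p = 1.9e-06). B4galnt1, which makes gangliosides, had 282.2, 227.6 and 353.0 against 27.1, 53.3 and 55.1 (-2.72 ± 0.39, adjusted p = 7e-06). Tyro3, a receptor kinase of the family that binds dying cells, had 69.6, 75.6 and 119.8 against 4.3, 17.2 and 24.6 (-2.44 ± 0.48, adjusted p = 0.00062). A dimmer probe set of Tyro3, with means of 10.6 at day 4 and 11.6 at day 20, was not called (0.12 ± 0.34). With the first probe set given for each gene the groups were apart. The rule that named the largest falls admitted only groups without overlap.

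Of the 40 genes of the respiratory chain 24 (60%) were called higher and 0 lower, with a median of 0.59, and 16 to 23 were called when 1 array was left out. Sdha, the flavoprotein of complex II, had 84.6, 71.1 and 85.4 at day 4 and 273.8, 221.3 and 191.4 at day 20 (1.50 ± 0.24, adjusted p = 4.7e-05). The complex I subunits Ndufs1 and Ndufa9 had 237.5, 244.2 and 203.5 against 722.2, 552.7 and 460.6 and 338.3, 392.8 and 318.7 against 1190.8, 725.0 and 715.5. They rose by 1.32 ± 0.21 and 1.29 ± 0.23 (adjusted p = 3.6e-05 and 0.00015), and mouse A of day 20 was the highest for all 3 genes. Fatty acid oxidation had 10 of 22 genes called higher and 0 lower and a median of 0.64; 6 were called without mouse A of day 4 and 5 without mouse C of day 4. Acadm, the medium-chain dehydrogenase, had 746.2, 774.3 and 623.4 against 2025.3, 1492.6 and 1568.2 (1.24 ± 0.24, adjusted p = 0.00048), and Hadhb, a subunit of the trifunctional protein, had 980.4, 911.1 and 1001.7 against 2291.1, 2258.8 and 2008.0 (1.18 ± 0.21, adjusted p = 0.00015). Cat, the peroxisomal catalase, rose by 1.31 (adjusted p = 0.0009), although a dimmer probe set gave -0.22 (adjusted p = 0.89).

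Muscle and brown fat are rich in mitochondria, and their markers were read beside these rises. Of 29 skeletal muscle markers 0 were called in either direction, with summed signals of 6691, 1719 and 5121 at day 4 and 8790, 4450 and 3118 at day 20. The respiratory chain list summed to 26161, 30708 and 25569 in mice A, B and C of day 4 and to 43011, 44642 and 40419 in those of day 20. Of 12 brown adipocyte markers 2 were called higher, Cox7a1 and Cox8b, both cytochrome oxidase subunits that muscle shares. Cox7a1 had 11.8, 10.5 and 22.1 against 77.8, 89.6 and 49.5 (2.33 ± 0.41, adjusted p = 0.00015), and the call of Cox8b (1.06, adjusted p = 0.0076) was lost without mouse B of day 20 (0.052). Ucp1, the defining gene of brown fat, had 23.8, 119.4 and 50.4 at day 4 and 57, 55.8 and 19.9 at day 20, with no separation (-0.39 ± 0.68, adjusted p = 0.92). The part of muscle or brown fat in the rises was not tested.

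Of 22 fibroblast markers 4 (18.2%) were called higher and 0 lower, with a median of 0.40 and 20 positive differences, and 0 were called without mouse A of day 20 or without mouse C of day 4. Of 18 endothelial markers 1 was called each way. Aqp1, the water channel of capillary endothelium, was the one that fell, with a narrow 481.9, 471.3 and 469.3 at day 4 and 138.2, 162.2 and 197.5 at day 20 (-1.53 ± 0.27, adjusted p = 0.00019), while a dim probe set of the gene gave 0.36 (adjusted p = 0.79). The pericyte, mast cell and skin lists had 0 calls among 13, 17 and 19 genes, the nerve list had 1 call each way among 18, and of 10 red blood cell genes 2 globins were called higher with overlapping arrays. The mast cell list summed to 841 to 1104 at day 4 and to 1351 to 1439 at day 20. A dimmer probe set of its gene Cma1 was called higher (2.57, adjusted p = 0.0014), whereas the brightest one rose by 1.09 (adjusted p = 0.062). Igfbp3, a carrier of insulin-like growth factors, rose by 1.96 (adjusted p = 0.0063) with one probe set and gave -0.41 (adjusted p = 0.94) with a dimmer one.

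Protein handling outside the lysosome was read from 4 lists. In those of 33 proteasome genes, 31 ribosomal protein genes and 14 heat shock genes there was 1 call each, and of 40 genes of the secretory pathway 6 (15%) were called lower and 3 (7.5%) higher, with a median of 0.01, the falls numbering 2 without mouse A of day 20 and 3 without mouse C of day 4. None of 15 clock genes was called, and of 26 interferon response genes 1 was called, higher.

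Many of the called genes did not run straight from lactation to day 20. Of the 639 falls, 396 (62%) stood higher at day 4 than at lactation day 7, 197 of them over 2-fold. Of the 548 rises, 221 (40.3%) stood lower at day 4 than at lactation day 7, whereas 321 (58.6%) already stood higher. The arrays of day 4 took part in choosing both sets, and the share over all probe sets was not computed. The plot of time courses follows 8 genes. Saa2 averaged 943.6 at lactation day 7, peaked at 6560.5 on involution day 2, stood at 2557.7 on day 4 and at 53.2 on day 20. Idi1 averaged 317.9 at lactation day 7, was lowest at 23.6 on involution day 2, and was at 45.1 and 313.8 on days 4 and 20. Wap and Pigr, in contrast, had their highest levels at lactation day 7 (15384.4 and 7065.4). Of the 639 probe sets called lower, 117 had their highest mean of the 18 time points at day 4 and 121 at involution day 1, against 71 at lactation day 7. Of the 548 called higher, 121 had their highest mean at day 20 and 164 at virgin 6 weeks; since both sets were chosen by these arrays, these numbers describe them only.

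**Figure D4:**
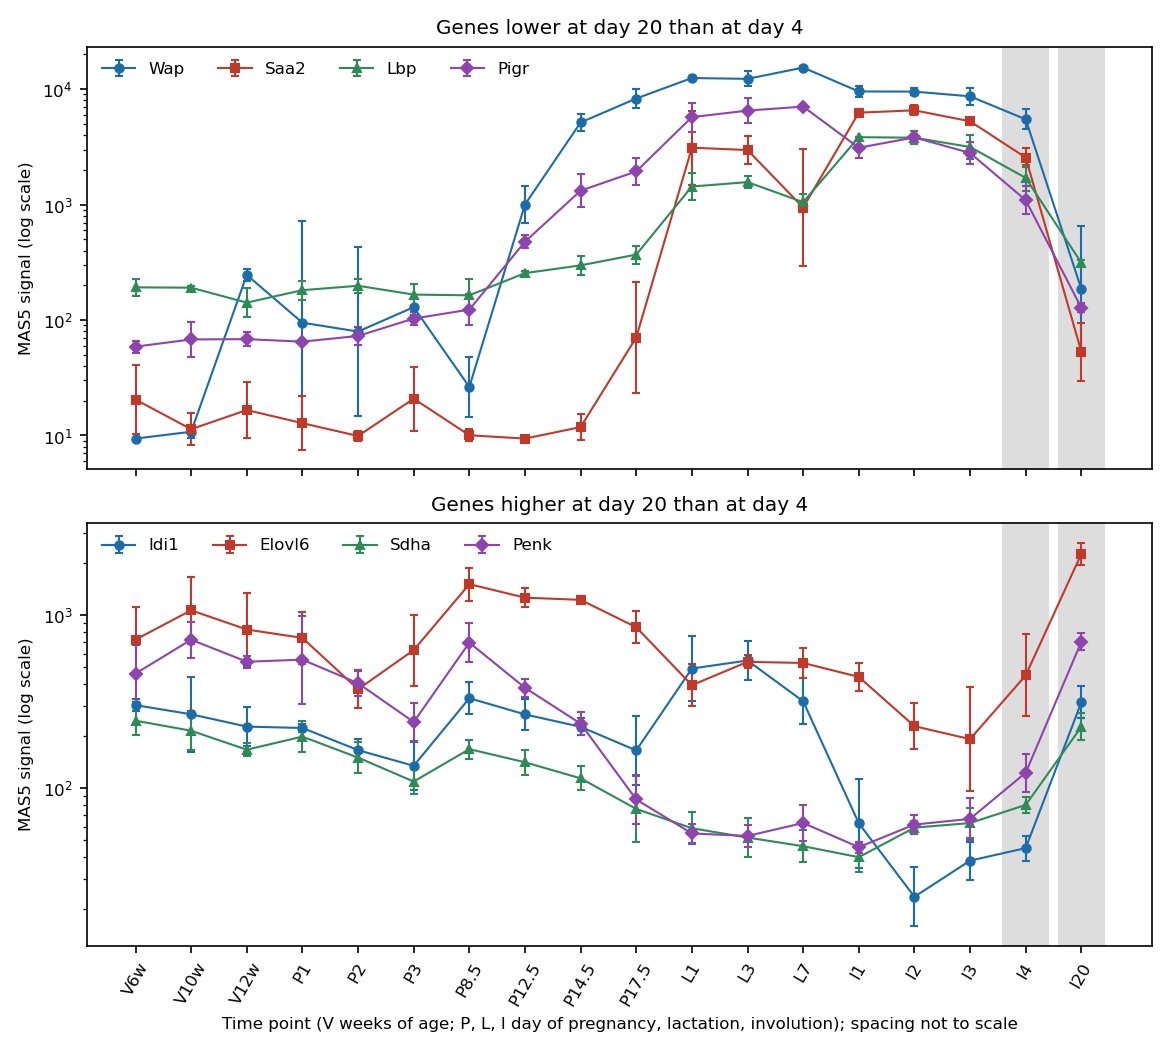
Geometric mean MAS5 signal, on a log axis, of 4 genes that fell (upper panel) and 4 that rose (lower panel) over the 18 time points, with bars of 1 SD on the log2 scale over 3 mice; grey bands mark involution days 4 and 20. Lbp and Saa2 are highest early in involution, and Elovl6 is highest at day 20, where it reaches 2258.4.

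**Figure D5:**
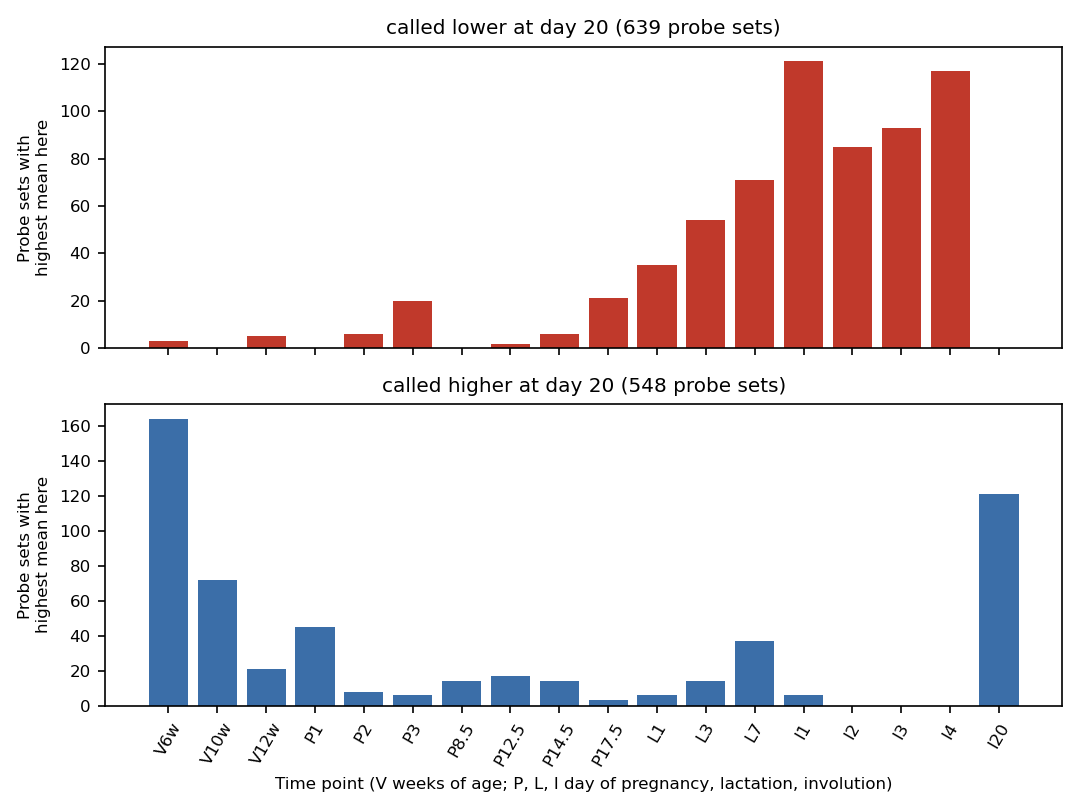
Number of probe sets whose mean is highest at each of the 18 time points, for the 639 called lower (upper panel) and the 548 called higher (lower panel) at day 20 than at day 4. Falls peak from lactation day 7 to involution day 4, with 117 at day 4 itself, and rises peak at virgin 6 weeks (164) and at day 20 (121).

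A separate pair of groups, with no array in common, asked how the late step relates to lactation. Between lactation day 7 and virgin 12 weeks, 2586 probe sets (20.8%) were called higher in lactation and 2494 (20.1%) lower. Of those higher in lactation, 265 (10.2%) were called lower at day 20 than at day 4 and 51 (1.97%) higher, with a median of -0.10. Of those lower in lactation, 338 (13.6%) were called higher and 93 (3.73%) lower, with a median of 0.19. Probe sets lower in lactation thus made up 61.7% of the rises, and those higher in lactation 41.5% of the falls.

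Day 20 was also set against virgin 12 weeks, the last age before mating, where 105 probe sets (0.845%) were called higher and 124 (0.998%) lower. This comparison shares the arrays of day 20, so its values are only given beside the others. It also crosses a split in Arl2bp, a gene whose signal was near 692 at virgin 12 weeks. Lactation day 7 against virgin 12 weeks crosses the same split, with a level of 81.3 at lactation day 7. Arl2bp had 97.2, 63.2 and 65.7 at day 4 and 87.2, 100 and 108.8 at day 20 (0.41 ± 0.64, adjusted p = 0.89). The split did not part virgin mice from all others, since the level was 580.7, 632 and 725.1 at pregnancy days 1, 2 and 3. Within pregnancy day 8.5 the 3 mice varied widely (SD 1.6 on the log2 scale), as at some later times. Whether the mice of virgin 12 weeks differ in more than stage from those of day 20 or of lactation day 7 cannot be told apart here. Among the milk genes, Wap at day 20 differed from virgin 12 weeks by -0.40 (adjusted p = 0.97). Its level was 185.7 at day 20 and 245.9 at virgin 12 weeks, but only 9.4 and 10.8 at virgin 6 and 10 weeks. Csn1s1, Csn2 and Csn3 were higher at day 20 than at virgin 12 weeks by 4.67, 3.67 and 3.46 (adjusted p = 0.0068, 0.0019 and 2.2e-06). The defence genes Lcn2, Ltf, Cd14 and Lbp were also above virgin 12 weeks, by 1.91, 2.06, 1.32 and 1.15 (adjusted p = 4.9e-05, 0.00014, 0.0087 and 0.0015). Below it were H2-Aa by -1.28, Aqp1 by -1.12, Lama5 by -1.48 and Agrn by -0.84 (adjusted p = 0.01, 0.017, 0.0075 and 0.0039). Sdha, Rbp4, Pparg, Krt8 and Stat3 did not pass, with differences of 0.44, 0.69, 0.09, -0.62 and -0.48 and adjusted p-values of 0.41, 0.15, 1, 0.4 and 0.36.

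The 3 virgin ages together give a range of means for each probe set, from the lowest to the highest of 6, 10 and 12 weeks. At day 4, 515 (94%) of the 548 probe sets called higher lay below that range, and at day 20, 293 (53.5%) lay within it, 201 (36.7%) above and 54 (9.85%) still below. Of the 639 called lower, 603 (94.4%) lay above the range at day 4, and at day 20, 372 (58.2%) lay within it, 119 (18.6%) above and 148 (23.2%) below. Both sets were chosen by these arrays. Over all probe sets 26.1% lay below, 49.2% within and 24.8% above the range at day 4, and 16.8%, 67.3% and 15.9% at day 20. Rbp4 and Elovl6 were among the rises that passed beyond it, with their highest means of all time points at day 20, and Lbp and Cd14 were among the falls that had not come back into it.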

How the data were processed

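The deposited table holds MAS5 signal, an array intensity, for 12488 probe sets of the Affymetrix MG-U74Av2 array; per the submitters' processing notes the authors used MAS5, with no version stated there, and the 2% trimmed mean of each array is 100.05 to 100.07. Leaving out 66 controls, log2 values with a floor of 9.4 were fitted with limma 3.58.1 (R 4.3.3) over all 54 arrays with 1 mean per time point and an intensity trend, and p-values were adjusted over 12422 probe sets by Benjamini-Hochberg. Of these, 10833 had 1 gene symbol, 396 several and 1193 none; 10817 matched the RefSeq table. A gene with several probe sets is represented by its brightest over the 54 arrays, save where another is named. The members and lists were chosen with earlier results of these data known. Named genes are the 15 largest rises and falls without overlap, up to 6 members of each list and a set of markers, of which a part is given; Btn1a1, Cel, Col1a1, Csn1s1, Csn3, Ctsd, Ctsh, Ctsl, Ctsz, Fasn, Glycam1, Il6, Lcn2, Lpl, Mfge8, Mmp3, Orm1, Psap and Ucp1 were named outside that rule, chosen after their values were seen. Each array is a separate mouse, and 3 per time point limit the precision. The fit was tested on simulated data. Alternatives were normalization, floor, filter, trend, weights, a beta-actin covariate, a replicate block, the 6 arrays alone and each array left out.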

Additional observations from a re-analysis of the deposited data

How the results depend on the processing

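The 548 higher and 639 lower calls became 1114 and 1172 with array quality weights and 56 and 65 with only the 6 arrays compared, and ranged from 307 to 531 higher and from 302 to 630 lower when 1 array was left out. Against virgin 12 weeks, 105 and 124 became 182 and 276 with weights, 26 and 27 with only the arrays compared, and the lower count 75 with median scaling; leaving out 1 array gave 86 to 122 higher and 81 to 227 lower, the extremes of the lower count being without mouse A of day 20 and without mouse C of virgin 12 weeks. The other alternatives stayed within 1.5 times the counts, and the causes were not tested. Mouse letters did not pair the arrays (correlations of deviations -0.0975, -0.172 and 0.0222); with the letter as a replicate block the counts were 584 and 689, and 109 and 130 against virgin 12 weeks. Beside the arrays named in the report, the beta-actin covariate ended the calls of Adipoq, Itgb4, Ctsd, Cd68, Lama2, Lamb1, Lamb3 and Acly, and median scaling those of Btn1a1, Csn1s2a, Osmr, Stmn1 and Ctsl. With no floor Esr1 and Csn1s2a lost their calls, with a floor at the 40th percentile Krt17, and with array weights Lamb3, while Glycam1 gained one (adjusted p = 0.01). No call of a named gene changed direction. Low signals limit the dim genes, as a fold is bounded where a group lies under the floor.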
